A study of Mus musculus with 8 samples.

Results

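The cyclin-dependent kinase inhibitors are a group of 7 genes, Cdkn1a, Cdkn1b, Cdkn1c, Cdkn2a, Cdkn2b, Cdkn2c and Cdkn2d, and all 7 were represented on the array. The array's annotation names 8252 genes, and the 7 were measured by 9 of its 12488 probe sets: 5 genes had 1 probe set each and 2 genes, Cdkn1a and Cdkn1b, had 2 each. The genes were chosen by name, and the group was taken up because Cdkn1c stood near 50% of its wild type level in all 3 knockout genotypes, so those levels are described here without a test. Total RNA from mouse testis was hybridised to 8 Affymetrix MG_U74Av2 arrays, 2 for each of 4 labelled genotypes. These were Ku86(+/+);Terc(+/+), called wild type here; Ku86(+/+);G3-Terc(-/-), the Terc knockout; Ku86(-/-);Terc(+/+), the Ku86 knockout; and Ku86(-/-);G3-Terc(-/-), the double knockout. Terc is the RNA template of telomerase, Ku86 is the DNA end-binding protein encoded by Xrcc5, and G3 marks the third generation of mice without Terc. Strain and age are not stated in the labels. The scanner records call the material germ cells where the labels call it testis. By the same records, replicate 1 of the double knockout was pooled from 3 mice, and replicate 1 of wild type was hybridised again because its background had been high.

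Cyclin-dependent kinases drive a cell from one stage of the division cycle to the next, and these inhibitors hold them back. The Cip/Kip proteins, p21 (Cdkn1a), p27 (Cdkn1b) and p57 (Cdkn1c), bind complexes of a cyclin with its kinase. The Ink4 proteins, p16 (Cdkn2a), p15 (Cdkn2b), p18 (Cdkn2c) and p19 (Cdkn2d), bind Cdk4 and Cdk6 and keep D-type cyclins from activating them. Cdkn1a is a target of the tumour suppressor p53, which is activated by damaged DNA and by short telomeres, and Cdkn2a marks senescent cells. In the mouse, males without both Cdkn2c and Cdkn2d do not complete spermatogenesis, and Cdkn1c is an imprinted gene read mainly from the maternal copy.

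RefSeq promoter windows (GRCm38.p6) were matched by symbol for 6 of the 7 genes, at 9 start sites, and Cdkn1c was not among them. The 100 bases before 4 of these starts are printed. They belong to the 3 genes, besides Cdkn1c, with signals over 100 on every array, and each holds a motif searched; the second start of Cdkn2c holds none and is not printed. Capitals mark a GC box (GGGCGG on either strand) or the outer letters of a paired core of p53 type (CATG, then any 6 bases, then CATG, the same on both strands).
Cdkn1a start 1, chr17:29090879-29090978, plus strand: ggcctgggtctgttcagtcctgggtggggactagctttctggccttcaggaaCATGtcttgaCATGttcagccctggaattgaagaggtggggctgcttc
Cdkn1a start 2, chr17:29093669-29093768, plus strand: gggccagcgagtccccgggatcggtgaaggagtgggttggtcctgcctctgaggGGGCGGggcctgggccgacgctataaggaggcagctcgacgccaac
Cdkn2c start 1, chr4:109666757-109666856, minus strand: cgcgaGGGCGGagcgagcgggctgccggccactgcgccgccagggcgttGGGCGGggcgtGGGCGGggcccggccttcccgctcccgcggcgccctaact
Cdkn2d, chr9:21291210-21291309, minus strand: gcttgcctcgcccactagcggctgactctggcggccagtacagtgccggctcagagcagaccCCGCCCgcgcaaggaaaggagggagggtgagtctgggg

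The windows searched were the 250 bases before each start. A GC box stood in 5 of the members' 9 windows and in 32.7% of all 32851 windows in the table. The paired core of p53 type stood in 1 of the 9 windows, before the first start of Cdkn1a, and in 0.49% of all windows; this motif was added after the sequence had been seen. Within those 250 bases Cdkn2c start 1 and Cdkn2d each held 3 GC boxes, and the share of G and C was 77.2% and 63.6% against a median of 52.4% over all windows. The second Cdkn2c start held 0 GC boxes and 42.8% G and C. A match describes letters and shows no binding. The RefSeq gene table places Cdkn2a, Cdkn2b and Cdkn2c on chromosome 4, and the other members on chromosomes 6, 7, 9 and 17.

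Signals are intensities in arbitrary units, brought by the authors to a common mean on each array. The median over probe sets was lowest on the first wild type array (49.7) and highest on the second Terc knockout array (73.2). Scan day 3 held wild type replicate 1 alone, scan day 1 held the first arrays of the Ku86 and double knockouts, and the other 5 arrays were scanned on day 2. Xrcc5 went against its labels: its signal was 259 to 459 on the 4 arrays labelled as lacking Ku86 and 11.1 to 75.6 on the 4 labelled with it. Where the probes lie in the transcript is not known here, so genotypes are given below as labelled. Levels are compared between genotypes within a probe set and never between probe sets.

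Cdkn1c, which encodes p57 and restrains proliferation in many developing tissues, was the member that differed most between the labelled genotypes. Its signal was 2206 (replicate 1) and 1491 (replicate 2) with the wild type label. It was 1086 and 731 on those labelled Terc knockout, 960 and 880 on those labelled Ku86 knockout, and 998 and 915 on those labelled double knockout. Both wild type arrays lay above all 6 knockout arrays, and the lower wild type array was 1.37 times the highest knockout array. The mean was 1848 ± 505 in wild type, 909 ± 251 in the Terc knockout, 920 ± 56.3 in the Ku86 knockout and 956 ± 58.9 in the double knockout (SD, n = 2 each). The knockout means were 49.2%, 49.8% and 51.7% of the wild type mean. As deposited, of the 5 members that passed the filter on low signal, Cdkn1c alone had both wild type arrays above every knockout array, a pattern held by 3.82% of all 7282 probe sets that passed, and the reverse pattern was held by 7.65%. Means at or under 60% of wild type in all 3 knockouts occurred in 0.261% of those probe sets; because the gene was chosen for this pattern, the shares are given only as background. The next member in that order was Cdkn2d, with knockout means of 71.5% to 76.1% of wild type.

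The size of the Cdkn1c difference depended on wild type replicate 1. Against wild type replicate 2 alone the knockout means were 60.9%, 61.7% and 64.1%. On the log2 scale the difference from wild type was -1.02 for the Terc knockout, -0.98 for the Ku86 knockout and -0.92 for the double knockout. Within scan day 2, where every genotype had an array, it was -0.74, -0.76 and -0.71. After quantile normalization the knockout means were 52.6%, 52.3% and 54.9% of wild type, and after centring every array on its median they were 38.8%, 41.6% and 42.4%. Under these scalings and with each array left out in turn, the difference was below 0 in all 3 knockouts. Over all tested probe sets the median difference from wild type was 0.11, 0.10 and 0.08 in the deposited scaling, and 0.00, 0.01 and -0.02 after quantile normalization. In whole tissue, fewer cells of a type and less RNA per cell cannot be told apart.

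**Figure D1:**
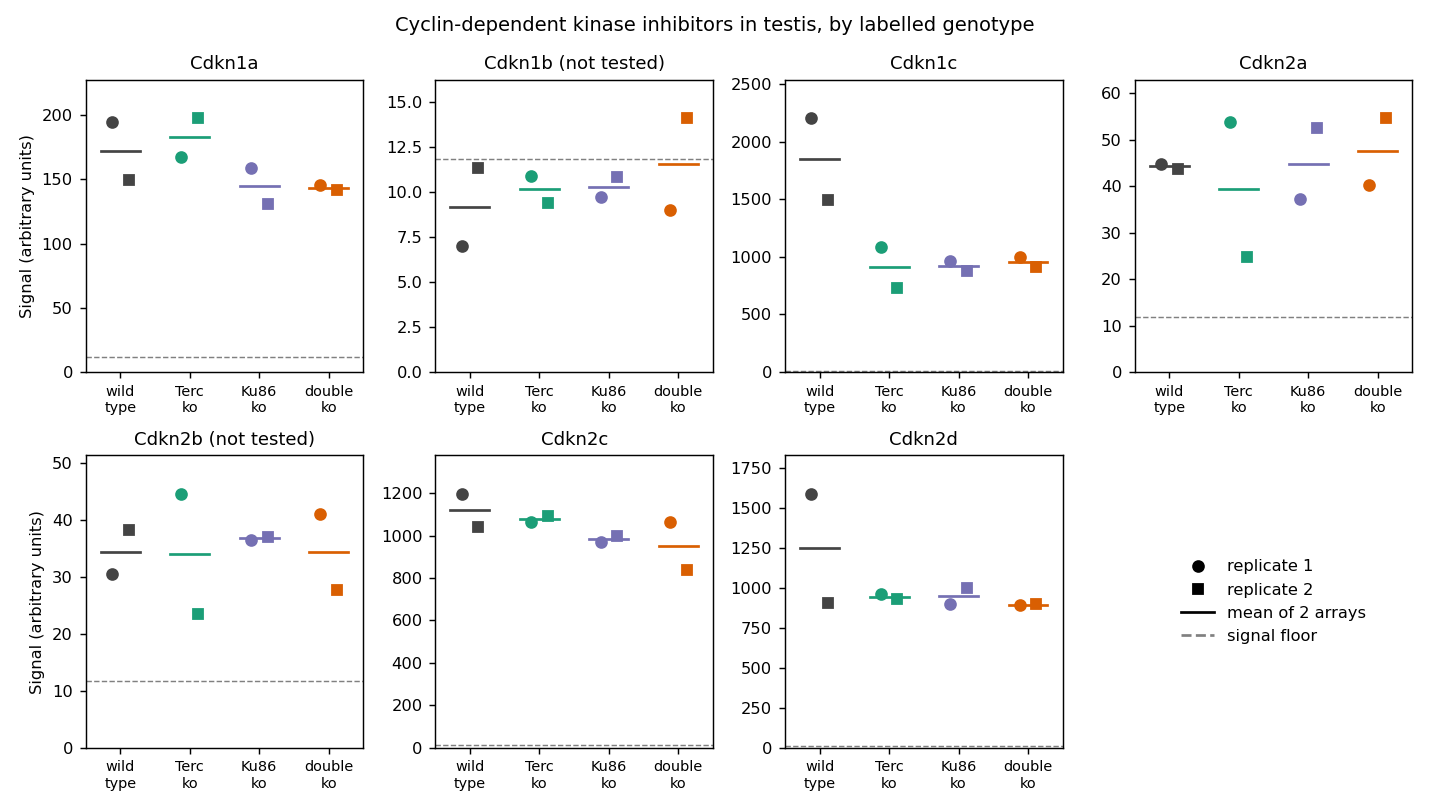
Signal in arbitrary units (vertical axis, from 0) of the brightest probe set of each gene on the 8 arrays, by labelled genotype; circles are replicate 1, squares replicate 2, short lines the mean of 2 arrays and the dashed line the signal floor of 11.8. Cdkn1c lies at 1491 and above in wild type and at 1086 and below in the knockouts, Cdkn2d is high on wild type replicate 1 alone, and Cdkn1b lies near or under the floor.

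Among the other Cip/Kip genes, Cdkn1a was well above the floor, and its means in the knockouts stood between 83.4% and 106% of wild type. Its brightest probe set read 194 and 150 in wild type, 167 and 198 in the Terc knockout, 159 and 131 in the Ku86 knockout, and 146 and 141 in the double knockout. As deposited, the Terc knockout had the highest mean (183 ± 21.6), followed by wild type (172 ± 31.7), the Ku86 knockout (145 ± 19.6) and the double knockout (143 ± 3.04; SD, n = 2 each). Each neighbouring pair in that order overlapped, and the values of the double knockout fell inside the range of the Ku86 knockout. The first place was not stable to scaling, since the Terc knockout stood at 96% of wild type after quantile normalization and 82.7% with median centring. Both double knockout arrays were below both wild type arrays, which held for 13.3% of probe sets. A second Cdkn1a probe set read only 11.6 to 22.2, close to the signal floor of 11.8, and was not tested. On it the Terc, Ku86 and double knockout means were 135%, 175% and 141% of wild type, against 106%, 84.2% and 83.4% on the brighter probe set. Signals so near the floor give no order of genotypes.

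Cdkn1b, the gene of p27, could not be followed at this signal. Its brighter probe set read 7.0 to 14.1 and lay above the floor on 1 of 8 arrays, double knockout replicate 2. Its other probe set read 1.3 to 17.7 and was above the floor on Terc knockout replicate 2 only. Neither passed the filter, and such signals give no order of genotypes.

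The Ink4 genes Cdkn2c and Cdkn2d, whose products p18 and p19 act on Cdk4 and Cdk6 in germ cells among others, varied little between knockout arrays. Cdkn2c read 1198 and 1039 in wild type, 1065 and 1091 in the Terc knockout, 968 and 998 in the Ku86 knockout, and 1065 and 836 in the double knockout. The wild type values enclosed those of the Terc knockout, and the double knockout spanned the Ku86 knockout. Both Ku86 knockout arrays were just below both wild type arrays, which held for 13.8% of probe sets. The means were 1118 ± 112, 1078 ± 18.8, 983 ± 21.3 and 951 ± 162 (SD, n = 2 each), in the order wild type, Terc, Ku86 and double knockout. The knockout means were 96.4%, 87.9% and 85% of wild type as deposited, 107%, 93.6% and 90.5% after quantile normalization, and 75.8%, 74.1% and 70.8% with median centring. The side on which the Terc knockout fell thus depended on the scaling. Over all 8 arrays the coefficient of variation of Cdkn2c was 10.1%.

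In wild type, Cdkn2d read 1588 on replicate 1 and 907 on replicate 2. It read 958 and 932 in the Terc knockout, 900 and 999 in the Ku86 knockout, and 889 and 896 in the double knockout. The 7 arrays other than wild type replicate 1 thus lay between 889 and 999 (mean 926 ± 40, SD, n = 7), and wild type replicate 1 was 1.59 times the highest of them. Measured against the mean of both wild type arrays (1248 ± 481, SD, n = 2) the knockouts stood at 71.5% to 76.1%. Against wild type replicate 2 alone the Terc, Ku86 and double knockouts stood at 104%, 105% and 98.4%. With median centring both wild type arrays (2006 and 959) lay above the highest knockout array (939), as for 13.7% of probe sets under that scaling, and the knockout means were 58.6%, 62.9% and 58%. After quantile normalization they were 84.4%, 82.5% and 78%, and the groups overlapped. As deposited, the lower knockout means of Cdkn2d therefore rested on 1 array, the one with the repeated hybridisation and a scan day of its own.

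The linked genes Cdkn2a and Cdkn2b, associated with senescence and with the response to transforming growth factor beta, were dim and did not separate the genotypes. Cdkn2a read 44.8 and 43.8 in wild type, 53.9 and 24.7 in the Terc knockout, 37.2 and 52.5 in the Ku86 knockout, and 40.3 and 54.7 in the double knockout. As deposited, every knockout pair enclosed the wild type values, and the Terc, Ku86 and double knockout means were 88.7%, 101% and 107% of wild type. They were 70.2%, 84.3% and 86.8% after quantile normalization, and 72%, 85% and 87.9% with median centring. Under these 2 scalings wild type replicate 1 (57.7 and 56.6) read above every knockout array, and wild type replicate 2 (45.8 and 46.3) did not. The gene yields p16 and the unrelated protein Arf from overlapping transcripts, and which of these the probe set detects is not known here. Cdkn2b read 23.6 to 44.7, above the floor on 8 of 8 arrays but under the filter, with means of 34.4 ± 5.52 in wild type, 34.2 ± 14.9 in the Terc knockout, 36.9 ± 0.354 in the Ku86 knockout and 34.4 ± 9.48 in the double knockout (SD, n = 2 each). Both its extremes came from the Terc knockout.

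**Figure D2:**
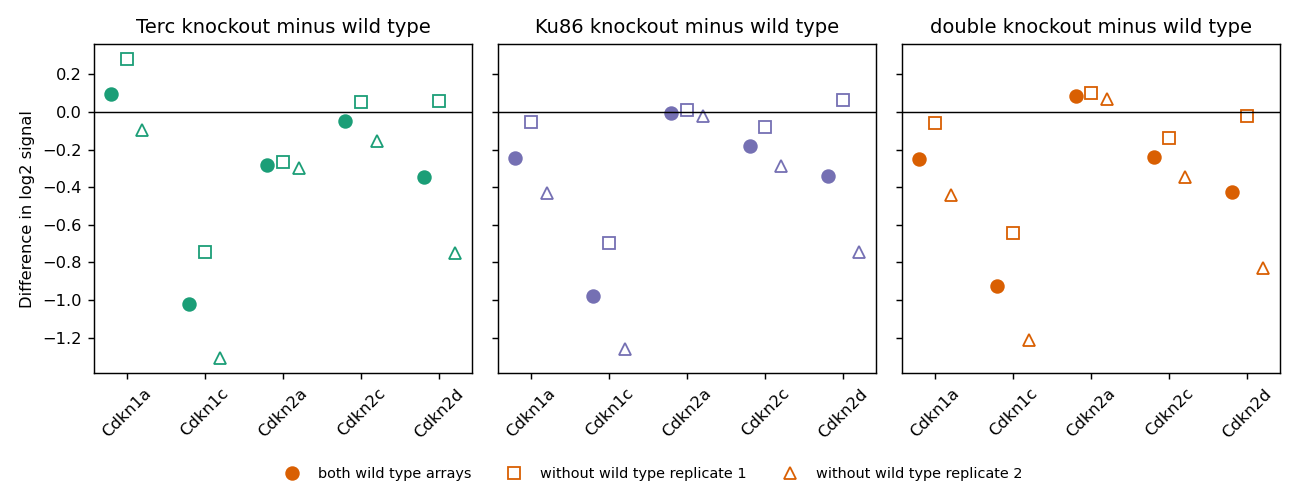
Difference in log2 signal from wild type (vertical axis) for the 5 members that passed the filter, with a panel for each labelled knockout; filled circles use both wild type arrays, open squares leave out wild type replicate 1 and open triangles leave out wild type replicate 2. Cdkn1c is below 0 in all settings, whereas Cdkn2d moves from between -0.74 and -0.83 without wild type replicate 2 to between -0.02 and 0.06 without replicate 1.

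The knockouts were next compared with each other. The wild type level does not enter these differences. For the members other than Cdkn1c they thus leave out the comparison that led to their choice. The wild type arrays did enter limma's estimate of spread, and with it the standard errors, intervals and p-values. These contrasts ask whether losing the second gene changed an inhibitor on a background that already lacked the first, and whether the single knockouts differed. None of the 4 members tested, Cdkn1a, Cdkn2a, Cdkn2c and Cdkn2d, was called by limma in the double knockout against the Terc knockout (0% of 7282 probe sets called) or against the Ku86 knockout (0%). Nor was any called in the Ku86 against the Terc knockout, where 0.0137% of probe sets were called, namely Klk1b8, a kallikrein, alone. At an unadjusted p under 0.05 the count was also 0 of 4 in each contrast, beside 4.26%, 3.36% and 2.39% of all probe sets.

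The difference furthest from 0 in the p53 target Cdkn1a was -0.34 ± 0.274 for the double knockout against the Terc knockout (SE on the log2 scale, 95% interval -0.941 to 0.255, limma adjusted p = 0.99). Its Ku86 knockout differed from the Terc knockout by a like amount, -0.34 ± 0.274 (SE, interval -0.935 to 0.262, limma adjusted p = 1), which turned to 0.0388 when both Cdkn1a probe sets were averaged. On the brighter probe set all 4 arrays labelled as lacking Ku86 (131 to 159) read below both Terc knockout arrays (167 and 198). The share of all probe sets with this pattern was not counted. On the dimmer probe set, close to the floor, these arrays (14.7 to 22.2) overlapped the Terc knockout (20.3 and 12.2). For Cdkn2c the intervals of the 3 contrasts lay between -0.616 and 0.365, and for Cdkn2d between -0.621 and 0.539, so that a change of 1 on the log2 scale was outside them. For the dimmer Cdkn2a they ran from -1.12 to 1.57, which leaves changes of that size undetectable with 2 arrays a group. Cdkn1c, described without a test, differed between knockouts by 0.10, 0.06 and 0.04.

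**Figure D3:**
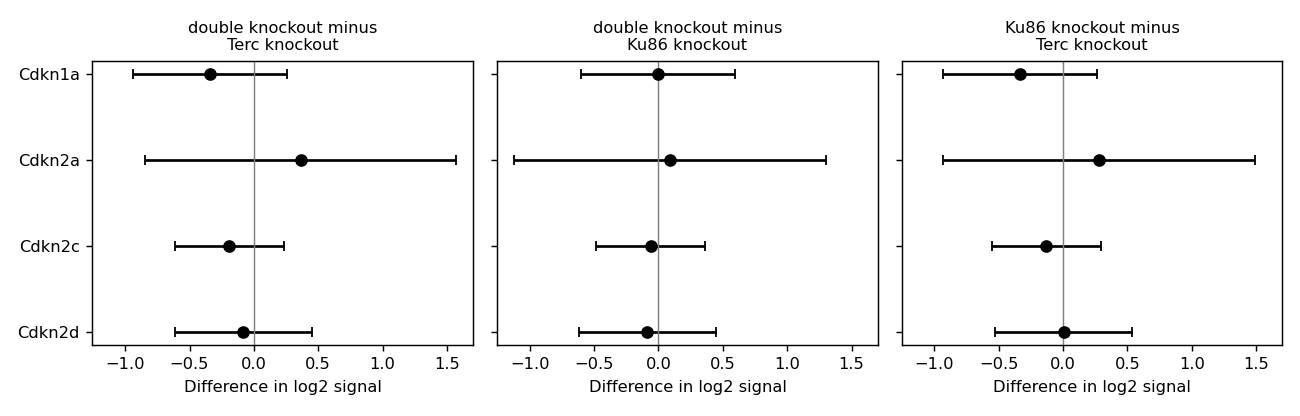
Difference in log2 signal between labelled knockouts (horizontal axis) for the 4 members tested, with limma's 95% intervals as bars. All 12 intervals include 0, and those of Cdkn2a are the widest.

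The cell makeup of the samples was read from marker genes. Of 13 spermatid markers on the array, all 13 passed the filter, and their summed signal was 75555 to 86855 in wild type, 80336 to 89247 in the Terc knockout, 81314 to 82200 in the Ku86 knockout and 75089 to 81786 in the double knockout. Markers of somatic cells were present too, with 15 of 16 Sertoli, 13 of 15 peritubular, vascular and matrix, and 6 of 8 Leydig genes passing, so the material held more than germ cells. Sertoli markers summed to 2703 to 2791 in wild type, 3652 to 4178 in the Terc knockout, 2983 to 4484 in the Ku86 knockout and 5092 to 6090 in the double knockout. Peritubular, vascular and matrix markers summed to 1934 to 2091, 2782 to 3150, 2439 to 3102 and 3301 to 3756 in the same order. The sums of both lists thus stood above wild type on all 6 knockout arrays while Cdkn1c stood below it. Not every marker did so. The endothelial genes Pecam1 and Vwf stood at 47.4% and 75.9% of wild type in the Terc knockout. They stood at 56.1% and 118% in the Ku86 knockout, and at 128% and 132% in the double knockout. Inha of the Sertoli list stood at 91.2%, 103% and 185%. With median centring the Sertoli sums of the Terc (3137 to 4099) and Ku86 knockouts (3104 to 4173) overlapped wild type (2864 to 3534), the double knockout (4531 to 6314) did not, and the peritubular sums still stood above wild type. Limma called 0 genes of either list, and at an unadjusted p under 0.05 the Sertoli list had 4, 0 and 10 of 15 higher, and the peritubular list 5, 3 and 8 of 13, in the Terc, Ku86 and double knockout, beside 4.9%, 3.72% and 6.34% of all probe sets. The filter used the mean of all 8 arrays, so markers dim in wild type could pass through their knockout signal. Myh11 (4.6 and 9.8 in wild type, 30.4 to 120.7 in the knockouts) and Kitl (20.6 and 24.6, 25.9 to 87.9) were such genes. The counts are thus partly set by the filter. Leydig markers summed to 1887 to 1994, 1878 to 2759, 1820 to 2368 and 2039 to 2989, and spermatocyte markers (5 of 7 passing) to 18826 to 20080, 16785 to 21244, 17292 to 17295 and 18172 to 18326. Spermatogonial markers (5 of 9 passing) summed to 1599 to 2573, 2256 to 2828, 2505 to 2976 and 2748 to 3103. Most of that sum was Ddx4 (865 and 1842 in wild type), and most of the spermatocyte sum was Ldhc (12308 and 12301). These 2 sums therefore follow single genes more than their lists. The 3 erythroid genes summed to 3066 to 4194, 1937 to 4136, 1272 to 3420 and 1754 to 1765, lower than wild type in the double knockout, where they stood at 48.5% of the wild type mean. No marker of the Sertoli, peritubular or Leydig lists lay under the floor on all arrays; Sycp3 of the spermatocyte list and Ret of the spermatogonial list did. With median centring the spermatid sums were below wild type (91787 to 95428) on every knockout array (68892 to 87536). So were the spermatocyte sums (21231 to 23792 in wild type, 14396 to 20846 in the knockouts). After quantile normalization the spermatid sums of every knockout (79548 to 83774) overlapped wild type (76093 to 82838). That scaling gives probe sets of equal rank equal values, and these sums rest on the brightest probe sets. Under it Prm1 differed from wild type by 0.04 and Tnp2 by -0.08 in the Terc knockout. The overlap was therefore largely fixed by the scaling and gives no reading of spermatid content. Of the spermatocyte sums, those of the Ku86 knockout alone lay below wild type after quantile normalization. The part of these shifts in the Cdkn1c values was not tested.

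**Figure D4:**
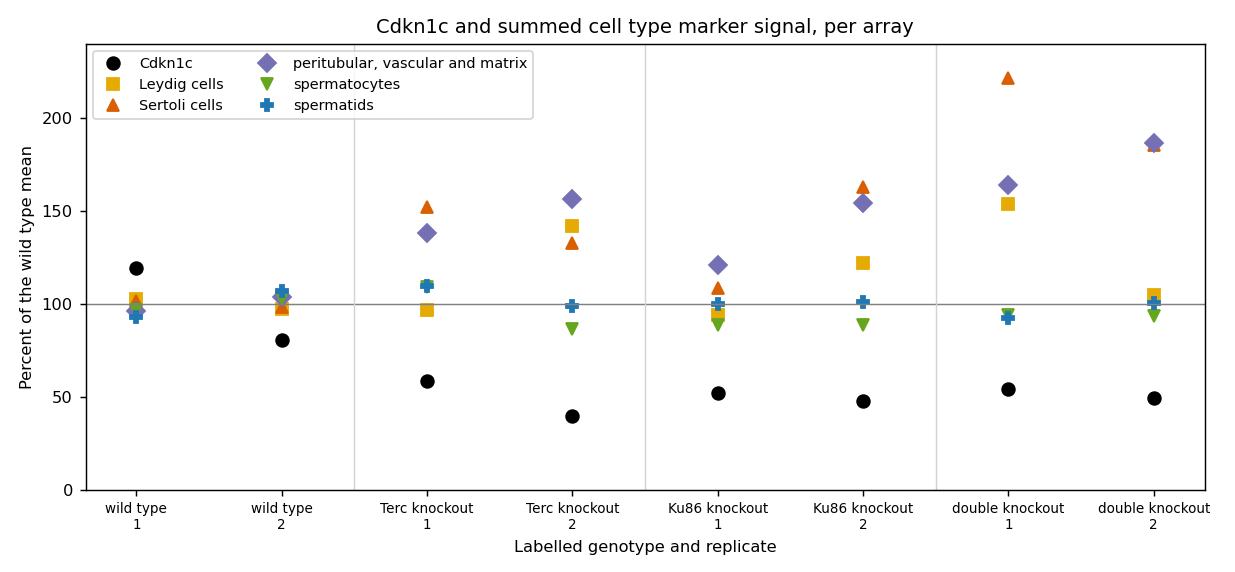
Cdkn1c signal and summed marker signal as a percent of the wild type mean (vertical axis, from 0) on each array, by labelled genotype and replicate. Of the series plotted, which leave out the erythroid genes, Cdkn1c is the lowest on every knockout array. The Sertoli sum and the peritubular, vascular and matrix sum lie above their wild type means there.

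Of the kinases and cyclins that the inhibitors bind, 12 of 15 listed genes were on the array and 10 passed the filter. Limma called 0 of the 10 in each knockout against wild type, beside 0.0275% of all probe sets called in the Terc knockout, 0.0412% in the Ku86 knockout and 0.0275% in the double knockout. An unadjusted p under 0.05 was found for Ccna2 (higher) and Ccnd3 (lower) in the Terc knockout, for Cdk7 (higher) in the Ku86 knockout and for 0 of the 10 in the double knockout, beside 7.06%, 5.9% and 8.6% of all probe sets. Those shares were 4.9% higher and 2.16% lower in the Terc knockout, 3.72% and 2.18% in the Ku86 knockout, and 6.34% and 2.25% in the double knockout. The double knockout minus wild type ranged from -0.93 for Ccne1, the cyclin that opens S phase with Cdk2, through -0.24 for Cdk2 itself, to 0.56 for Ccna2 and 0.68 for Cdk7, the kinase that activates the others. The median over the list was -0.01, 0.28 and 0.01 in the Terc, Ku86 and double knockout, against 0.09, 0.08 and 0.08 over all genes. Cdk4, the direct partner of the Ink4 proteins, read 419 and 359 in wild type and 353 to 530 in the knockouts. The groups overlapped except for the Ku86 and double knockouts, which lay above wild type (limma unadjusted p = 0.141 and 0.0898). The share of all probe sets separated in that direction was not counted.

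Downstream of the kinases, 14 of 18 listed Rb, E2F and S-phase genes were on the array and 12 passed; limma called 0 in any knockout against wild type. Tk1, the thymidine kinase transcribed in S phase, was the sole member with an unadjusted p under 0.05 in each of the 3 comparisons. Over all probe sets such p-values made up 7.06%, 5.9% and 8.6%. Tk1 read 33.3 and 65.8 in wild type, 188 and 207 in the Terc knockout, 144 and 172 in the Ku86 knockout, and 91.8 and 160 in the double knockout. Every knockout array was above both wild type arrays, as for 7.65% of all probe sets, and the log2 differences of 2.08, 1.75 and 1.37 did not pass adjustment over all probe sets (limma adjusted p = 0.371 in the double knockout). E2f1, a transcription factor released when Rb is phosphorylated, differed by 1.13, 1.20 and 0.74, from 16.8 and 48.9 in wild type. Against wild type replicate 2 alone its knockout means were 129%, 140% and 111%, and the Ku86 and double knockouts overlapped wild type. Rbl1 and Mki67 stood at the lower end in the double knockout, with -0.16 and -0.02. List medians were 0.13, 0.20 and 0.14.

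Regulators of the inhibitors were represented by 21 of 27 listed genes, of which 13 passed and limma called 0 in each comparison. Foxo3, a transcription factor that raises Cdkn1b, was the only one with an unadjusted p under 0.05. This held in the Terc knockout (1.07) and the double knockout (1.01), and Foxo3 was 0.58 in the Ku86 knockout. Over all probe sets such p-values made up 7.06%, 5.9% and 8.6% in the Terc, Ku86 and double knockout. Akt2, a kinase that inactivates Foxo factors, differed by 0.20, 0.18 and 0.73, of which the first 2 became -0.13 and -0.06 with median centring. Cks2 and Skp1, linked to the ubiquitin ligase that degrades p27, stood lowest in the double knockout at -0.36 and -0.09 (0.02 for Skp1 after quantile normalization). Mdm2, a target of p53 that degrades it, read 459 and 473 in wild type and 353 to 739 in the knockouts, and the arrays of each knockout enclosed the wild type values. Among 7 other growth-restraining and senescence genes that passed, of 11 on the array and 13 listed, limma called 0. Of these genes 0 had an unadjusted p under 0.05, beside the same shares of all probe sets. In the double knockout they ranged from -0.12 for Cdkn3, a phosphatase that acts on Cdk2 (0.04 after quantile normalization), and -0.11 for the lysosomal galactosidase Glb1 to 0.43 for Btg2 and 0.54 for Plk2, both known p53 targets.

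Cdkn1c lies on chromosome 7 in an imprinted cluster, between Kcnq1 and Slc22a18 in the order of protein-coding genes. As deposited, none of its neighbours that passed the filter had both wild type arrays above all 6 knockout arrays. Slc22a18 beside it came close and did so under both other scalings. Ins2, which did not pass and was above the floor on 1 array only, showed that pattern. It read 8.6 and 18.5 in wild type and 3.3 to 7.0 in the knockouts. Of 11 cluster genes that passed the filter, of 14 on the array and 18 listed, limma called 0 in each comparison. Unadjusted p-values under 0.05 were found for Cd81 and Igf2, both higher, in the Terc knockout, and for Ascl2 and Igf2, both higher, in the Ku86 knockout. In the double knockout they were found for Cd81 and Igf2, both higher, and for Slc22a18 and Tspan32, both lower. Over all probe sets such p-values made up 7.06%, 5.9% and 8.6% in the 3 comparisons. Genes named for an unadjusted p or as pathway examples beyond the fixed rule were picked after their values were seen.

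Igf2, a growth factor read from the paternal copy, had 151 and 209 in wild type and 268 to 368 on the knockout arrays. All 6 thus lay above wild type, the opposite side from Cdkn1c, a pattern held by 7.65% of all probe sets. Its log2 differences were 0.78, 0.67 and 0.89 in the Terc, Ku86 and double knockout, and 0.45, 0.44 and 0.62 with median centring. Slc22a18, a transporter gene imprinted like Cdkn1c, read 269 and 290 in wild type, 226 and 270 in the Terc knockout, 262 and 222 in the Ku86 knockout, and 166 and 194 in the double knockout. The Ku86 and double knockouts lay below wild type, as for 13.8% and 13.3% of probe sets, and the differences were -0.18, -0.21 and -0.64. Its lowest wild type array was 286 against a highest knockout array of 267 after quantile normalization, and 307 against 272 with median centring, where the differences were -0.51, -0.45 and -0.91. Phlda2, a placental growth restrainer also read from the maternal copy, differed by 0.89, 0.36 and 0.36, and Kcnq1, a potassium channel gene, by 0.43, 0.32 and 0.00 (-0.27 for the last with median centring). Tspan32, also below 0 in all 3 knockouts (-0.70, -0.01 and -1.37), had the lowest double knockout difference of the cluster and Cars the highest (0.97). Cars read 22.0 and 124 in wild type, and its double knockout mean was 84% of wild type replicate 2.

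**Figure D5:**
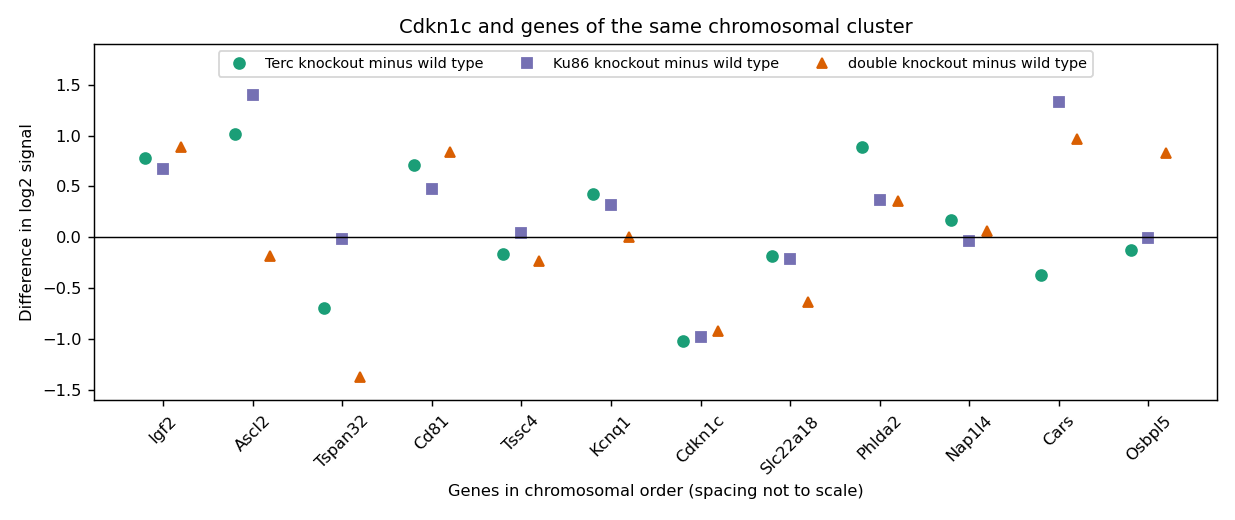
Difference in log2 signal from wild type (vertical axis) for Cdkn1c and the 11 genes of its chromosomal cluster that passed the filter, in chromosomal order without scale, for the 3 labelled knockouts. Cdkn1c lies between -1.02 and -0.92 in all 3, Igf2 and Cd81 lie above 0 in all 3, and Slc22a18 and Tspan32 lie below 0 in all 3.

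The probe sets most like Cdkn1c across the 8 arrays, by Pearson correlation of log2 signal, were those of Elof1 (r = 0.988), Zswim7 (0.982), Cd55 (0.965), Ubac2 (0.954), Pam16 (0.947) and Hps4 (0.944). All 6 were chosen for that likeness, and the arrays share a per-array scaling. Cd55, a complement regulator, read 175 and 126 in wild type and 73.5 to 95.5 on the knockout arrays. Elof1, a transcription elongation factor, covered a narrower range, 6914 and 6003 against 4717 to 5509. Over the 6 knockout arrays alone the correlations were 0.904 for Elof1, 0.887 for Zswim7, 0.631 for Cd55, 0.827 for Ubac2, 0.631 for Pam16 and 0.668 for Hps4. Among the other members Cdkn2d was the most like Cdkn1c (r = 0.769, n = 8), and without wild type replicate 1 this became -0.232 (n = 7).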

How the data were processed

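The deposited values were linear intensity values per probe set, already scaled by the authors, since the mean trimmed by 2% at both ends was nearly equal on all arrays. No source used here names the software. Scan days came from other text records, per the file headers. Signals below the pooled 20th percentile (11.8) were raised to that floor before log2. After removal of 66 controls and of 5140 probe sets with mean log2 under that of the 40th percentile (38.1), 7282 were tested. Limma 3.58.1 in R 4.3.3 (lmFit, eBayes with trend) was fitted to all 8 arrays with 1 mean per genotype. A call was an adjusted p under 0.05 (two-sided, Benjamini-Hochberg across the 7282). The pipeline was tested on simulated data. A gene's brightest probe set carried it. The rule for named genes took all members, the 6 probe sets most like Cdkn1c, genes called, and the 2 lowest and 2 highest of each pathway list in the double knockout. Members and lists were chosen with earlier results of these data known. Alternatives covered scaling, floor, filter, variance trend, blocks and left-out arrays; within-day values and rescaled marker and neighbour signals were added after seeing the data. Gene order came from GRCm38.p6. Nothing says that arrays of a genotype came from separate mice beyond the scanner records, so p-values measure the spread between arrays, and their number limits the precision.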

Additional observations from a re-analysis of the deposited data

How the results depend on the processing

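Counts of called probe sets were small and changed with most settings, whereas none of the tested member values passed in any alternative (0 of 204, lowest limma adjusted p 0.717). In the order double against Terc, double against Ku86, Ku86 against Terc, then Terc, Ku86 and double knockout against wild type, the counts were 0, 0, 1, 2, 3 and 2. Quantile normalization, no variance trend and the replicate block each gave 0 in the last 4; median centring gave 1 in each of the last 3; the floor at the 5th percentile gave 0 in Terc against wild type and the floor at the 40th 3 in Ku86 against Terc. With no filter the counts were 10, 4, 11 and 9 in the first 4 and 1 in the last. Scan day as a block gave 0 in Ku86 against Terc, 1 in Terc against wild type and 0 in the last 2. Leaving out 1 array gave 0 to 2 in the first 3, 0 to 4 in Terc, 0 to 3 in Ku86 and 0 to 4 in the double knockout against wild type. Replicate numbers did not pair the arrays (correlations of deviations 0.0126 to 0.254), and with the replicate block no member was called. Some member differences changed sign: Cdkn2d in Ku86 against Terc was -0.0373 after quantile normalization, Cdkn2a there -0.019 at the higher floor, and Cdkn1a there 0.0388, from -0.34, as the mean of its probe sets. Leaving out 1 array, 6 of the 12 tested differences had ranges that crossed 0: in double against Ku86, -0.145 to 0.132 for Cdkn1a, -0.161 to 0.336 for Cdkn2a and -0.234 to 0.115 for Cdkn2c; in Ku86 against Terc, -0.0692 to 0.0803 for Cdkn2d and -0.286 to 0.839 for Cdkn2a; and in double against Terc, -0.199 to 0.927 for Cdkn2a. So did 3 of 3 Cdkn1c differences between knockouts, 7 of 12 differences of the other members from wild type and 0 of 3 of Cdkn1c from wild type. The cause was not tested. Cdkn1c against wild type lay between -1.36 and -0.74, -1.26 and -0.70, and -1.21 and -0.64 in the 3 knockouts over 18 alternatives each. Many of these could not change the value. The floors and filter lie below its signals, the variance trend does not enter the difference, and the gene has 1 probe set. Leaving out an array of a genotype outside the comparison cannot change it either.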
